A study of Drosophila melanogaster with 10 samples.

Results

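The genes described here are the 10 transcription factors known from the temporal series of medulla neuroblasts in the Drosophila melanogaster optic lobe, hth, opa, erm, ey, hbn, slp1, slp2, scro, D and tll. The rule that picks them is a list of symbols applied to 17895 gene rows of a table of estimated RNA-seq counts. All 10 passed the filter on low counts that left 10749 genes for testing. Whole brains of larvae in the third instar were profiled in 4 libraries with the genotype label vostok, a mutant of CG11504, and in 4 libraries with the genotype label control, whose columns are named yw. The labels give no allele and no more exact age for either group, and do not say whether the repeats of a group are separate pools of animals, so p-values measure only how far these libraries spread, a spread that may be technical. The series also holds 2 vostok Micro-C libraries, which were not analysed here, and the comparison asked how the mutation bears on transcription.

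Medulla neuroblasts arise at the edge of a neuroepithelium, the outer proliferation centre, and each then passes through a sequence of transcription factors as it divides. Neurons born in successive windows inherit different factors, which together with the position of the neuroblast and with Notch signalling set their identity. Many of the same factors also act outside the medulla, in intermediate progenitors of the central brain, in mushroom body neurons or in the eye disc. A whole-brain level therefore sums several sources, and fewer cells of a type cannot be told apart from less RNA per cell.

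Levels are given as CPM, counts divided by the library size after scaling by TMM factors, which compare libraries for 1 gene but not genes with each other. Differences are log2 fold changes, vostok over control, each with its SE and with a p from the quasi-likelihood test of edgeR that was adjusted over all tested genes by the Benjamini-Hochberg method and called below 0.05. The libraries held 57613848 to 81796126 estimated counts. The members had 1597 to 60741 counts per library, so that counting error alone was at most 2.5% of a value. CG11504 averaged 73.6 ± 1.93 CPM in vostok and 60.1 ± 4.99 CPM in control libraries (SD, n = 4 each, edgeR adjusted p = 0.0143, and 0.0531 without vostok replicate 3). This higher level in vostok does not check the labels, on which every direction below rests.

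The control libraries were not alike. On the main axis of variation, with 61.7% of the variance, vostok libraries lay at -56 to -39.4 and control libraries at 65, 20.5, 66 and 46.4 for repeats 1 to 4, so that control replicate 2 was nearest to vostok. Summed over 10 genes of mature neurons, levels were 3070, 2980, 3410 and 3460 CPM in vostok repeats 1 to 4, against 1560, 3460, 1850 and 2780 CPM in control repeats 1 to 4. Summed over 8 hemocyte genes they were 515, 282, 298 and 140 CPM in vostok libraries, against 1130, 195, 3270 and 1030 CPM in control libraries. Control replicates 1 and 3 were thus low in the neuronal sum, and control replicate 2 was the lowest control library in the hemocyte sum. The brain markers elav, repo and dpn, of neurons, glia and neuroblasts, were detected in every library.

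In vostok brains tll, opa and scro rose, by 1.53-fold, 1.29-fold and 1.5-fold, and slp1 fell to 0.877-fold of control. The changed genes were thus spread over the series: opa is used in windows after hth, slp1 before D, and scro and tll late. D, erm and hbn had fold changes of 1.32, 1.35 and 1.31 that did not pass the test, and hth, slp2 and ey were close to equality at 0.952, 0.989 and 0.992. Of the 10 members 3 were called higher and 1 lower, while of all tested genes 28.3% were called, 12.1% higher and 16.2% lower. The same 4 members were those whose groups did not overlap, 3 higher and 1 lower, and over all tested genes groups did not overlap for 33.2%, 16.4% higher and 16.8% lower. With 10 genes a count of 4 is near these backgrounds and is not read as a property of the series. Without vostok repeats 1 to 4 and then control repeats 1 to 4 in turn, 2, 2, 2, 2, 2, 6, 2 and 3 members were higher and 0, 0, 0, 1, 0, 1, 0 and 0 lower. The median log2 fold change of the members was 0.38, with 6 of 10 above 0, against -0.01 over all tested genes. For the 10 mature neuron genes the median was 0.42, with 10 of 10 above 0 and 0 called. The median of the members was thus no higher than that of neuronal genes, although fewer members were above 0 and more were called.

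**Figure D1:**
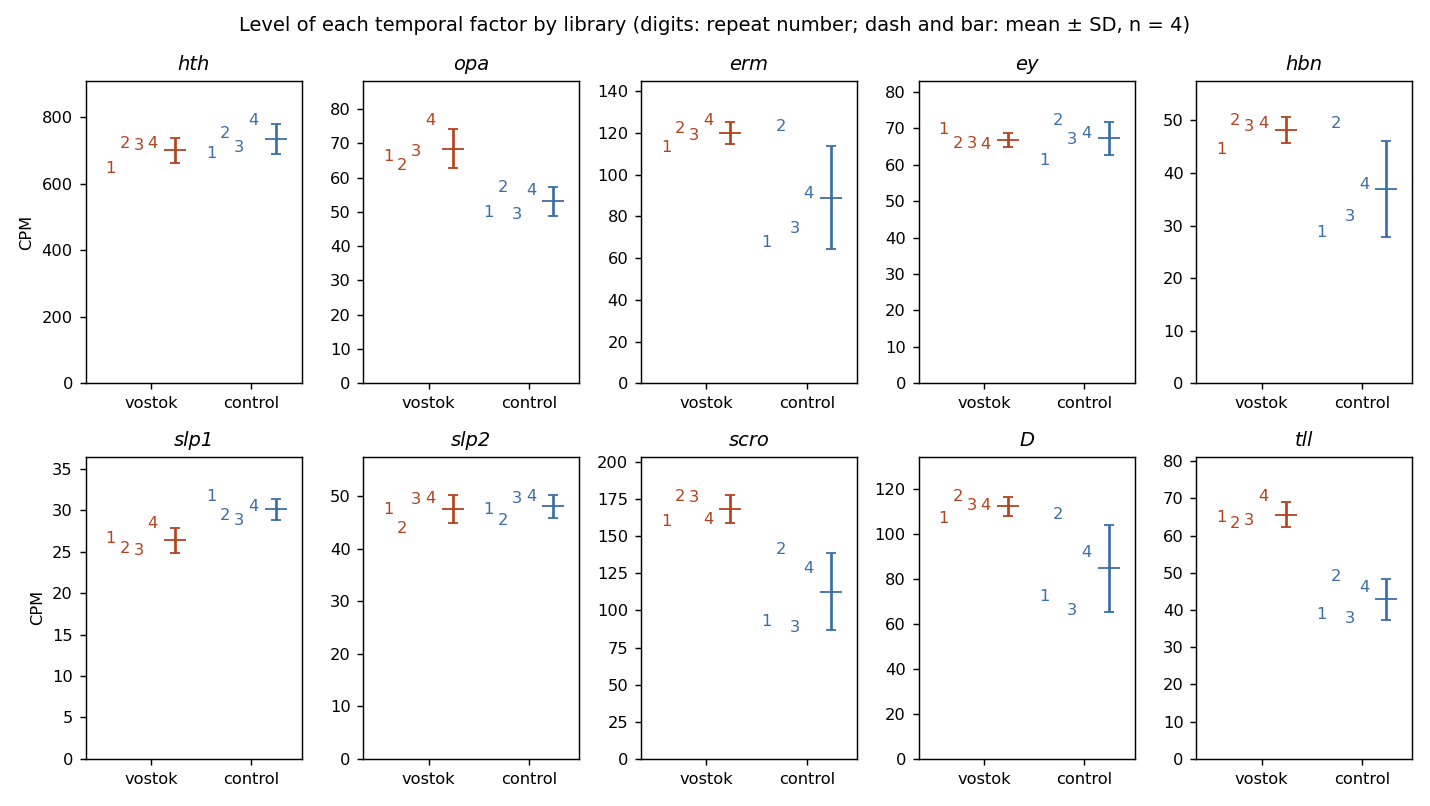
Levels in CPM of the 10 temporal factors in each library, with vostok left of control; digits are repeat numbers, and the dash and bar are the mean ± SD (n = 4). Groups do not overlap for opa, scro, tll and slp1, and for erm and hbn control repeat 2 sits among the vostok libraries.

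The series opens with hth, which encodes a homeodomain cofactor and is already on in the neuroepithelium. Its level was 646, 721, 717 and 721 CPM in vostok repeats 1 to 4, against 691, 753, 710 and 791 CPM in control repeats 1 to 4. The groups overlapped, with vostok replicate 1 the lowest of all 8 libraries. The log2 fold change was -0.07 ± 0.07 (edgeR adjusted p = 0.426), with a 95% interval of -0.23 to 0.08 that holds falls to 0.853-fold and rises to 1.06-fold. The hth gene overlaps the antisense gene asRNA:CR44018, which averaged 8.75 ± 0.375 CPM in vostok and 5.77 ± 2.2 CPM in control libraries (SD, n = 4 each, edgeR adjusted p = 0.107). The sources used here do not say whether counting took strand into account, so reads of the pair may not be fully divided.

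The zinc finger gene opa, a member of the Zic family first known as a pair-rule gene of the embryo, is used in the windows after hth. It stood at 66.1, 63.6, 67.5 and 76.7 CPM in vostok repeats 1 to 4, against 49.7, 57.2, 49.2 and 56.3 CPM in control repeats 1 to 4. Each vostok library was above each control library. This gave a log2 fold change of 0.37 ± 0.08 (edgeR adjusted p = 0.0141), and the call held when any 1 library was left out (highest adjusted p 0.0422). With the mean of the hemocyte list as a covariate it was 0.25 and no longer passed (adjusted p = 0.0697).

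In the middle of the series erm, hbn and ey encode a zinc finger protein, a paired-type homeodomain protein and a Pax6 protein. In type II lineages of the central brain erm is also known to keep intermediate progenitors from reverting to neuroblasts. It was at 113, 122, 119 and 126 CPM in vostok repeats 1 to 4, against 67.6, 123, 74.3 and 91.2 CPM in control repeats 1 to 4. The vostok values lay close together, while control replicate 2 lay among them and the other 3 control libraries lay below. For erm the log2 fold change of 0.43 ± 0.18 did not pass (edgeR adjusted p = 0.0956).

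The level of hbn was 44.5, 50, 48.8 and 49.5 CPM in vostok repeats 1 to 4, against 28.6, 49.4, 31.8 and 37.9 CPM in control repeats 1 to 4. As for erm, control replicate 2 lay within the vostok range and the other control libraries below it. Its log2 fold change of 0.38 ± 0.16 did not pass (edgeR adjusted p = 0.101). Without control replicate 2 both genes passed, with log2 fold changes of 0.62 for erm (adjusted p = 0.00358) and 0.55 for hbn (adjusted p = 0.00488). With the hemocyte covariate the values were 0.20 for erm (adjusted p = 0.405) and 0.18 for hbn (adjusted p = 0.437).

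In contrast, ey was nearly level. It was at 69.6, 65.9, 66 and 65.6 CPM in vostok repeats 1 to 4, against 61.3, 72.2, 67.1 and 68.5 CPM in control repeats 1 to 4. The vostok values lay inside the control range. Its log2 fold change was -0.01 ± 0.06 (edgeR adjusted p = 0.889; 95% interval -0.14 to 0.12), an interval that excludes a rise beyond 1.09-fold and a fall below 0.908-fold. Besides its medulla window, ey is known from mushroom body neurons and the eye disc.

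The paralogous forkhead genes slp1 and slp2 share a window, and lie side by side on chromosome arm 2L with 9740 bp between their annotated spans. The level of slp1 was 26.6, 25.4, 25.1 and 28.4 CPM in vostok repeats 1 to 4, against 31.7, 29.4, 28.8 and 30.5 CPM in control repeats 1 to 4. The groups did not overlap, and the highest vostok library, replicate 4, was just below the lowest control library. For slp1 the log2 fold change was -0.19 ± 0.06 (edgeR adjusted p = 0.0431). This small change was near the threshold: 6 of the 8 runs that left out a library did not call it (adjusted p up to 0.123, without vostok replicate 2), nor did fits with RLE, upper quartile or no scaling factors, or with a stricter count filter.

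Its neighbour slp2 was at 47.5, 43.9, 49.4 and 49.5 CPM in vostok repeats 1 to 4, against 47.5, 45.3, 49.5 and 50 CPM in control repeats 1 to 4. The ranges covered each other almost fully (log2 fold change -0.02 ± 0.06, edgeR adjusted p = 0.842, 95% interval -0.15 to 0.12). To test whether the pair differed in response, slp1 was taken as a share of the counts of both genes, which does not depend on library scaling. The share was 35.9%, 36.7%, 33.7% and 36.5% in vostok repeats 1 to 4, against 40.0%, 39.4%, 36.7% and 37.9% in control repeats 1 to 4. It averaged 35.7% ± 1.36 in vostok and 38.5% ± 1.48 in control libraries (SD, n = 4 each), a difference of -2.82 percentage points. The highest vostok and the lowest control library, both 36.7% when rounded, did not overlap, and the exact two-sided permutation test gave p = 0.0286, the smallest it can give for 4 against 4. Counting can divide reads between similar paralogs, so the split between slp1 and slp2 is uncertain to that extent.

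Late in the series scro encodes an NK-2 type homeodomain protein. It was at 160, 177, 176 and 161 CPM in vostok repeats 1 to 4, against 92.4, 141, 88.6 and 128 CPM in control repeats 1 to 4. All vostok libraries were above all control libraries, of which repeats 2 and 4 came nearest. The difference was 0.58 ± 0.15 on the log2 scale (edgeR adjusted p = 0.0292). In 6 of the 8 runs that left out a library it did not pass (adjusted p up to 0.0811, without vostok replicate 3), nor did it with the hemocyte covariate (log2 fold change 0.43, adjusted p = 0.145).

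The Sox gene D, or Dichaete, encodes an HMG box protein and follows slp1 and slp2 in the series. Its level was 107, 117, 113 and 113 CPM in vostok repeats 1 to 4, against 72.5, 109, 66.3 and 91.9 CPM in control repeats 1 to 4. Control replicate 2 again lay within the vostok range, here above vostok replicate 1 only. The log2 fold change of 0.40 ± 0.15 did not pass (edgeR adjusted p = 0.0741), but did with DESeq2 (adjusted p = 0.0323) and without control replicate 2 (0.54, edgeR adjusted p = 0.00703). With the hemocyte covariate it was 0.22 (adjusted p = 0.332).

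The series closes with tll, an orphan nuclear receptor whose window comes before the change to making glia. It was at 64.8, 63.2, 64 and 70.6 CPM in vostok repeats 1 to 4, against 38.7, 49, 37.8 and 46 CPM in control repeats 1 to 4. The lowest vostok library was well above the highest control library. The log2 fold change of 0.61 ± 0.09 (edgeR adjusted p = 0.00302; 95% interval 0.40 to 0.83) had the smallest p among the members. It passed under each alternative run, with values of 0.48 with the hemocyte covariate to 0.68 without control replicate 2.

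**Figure D2:**
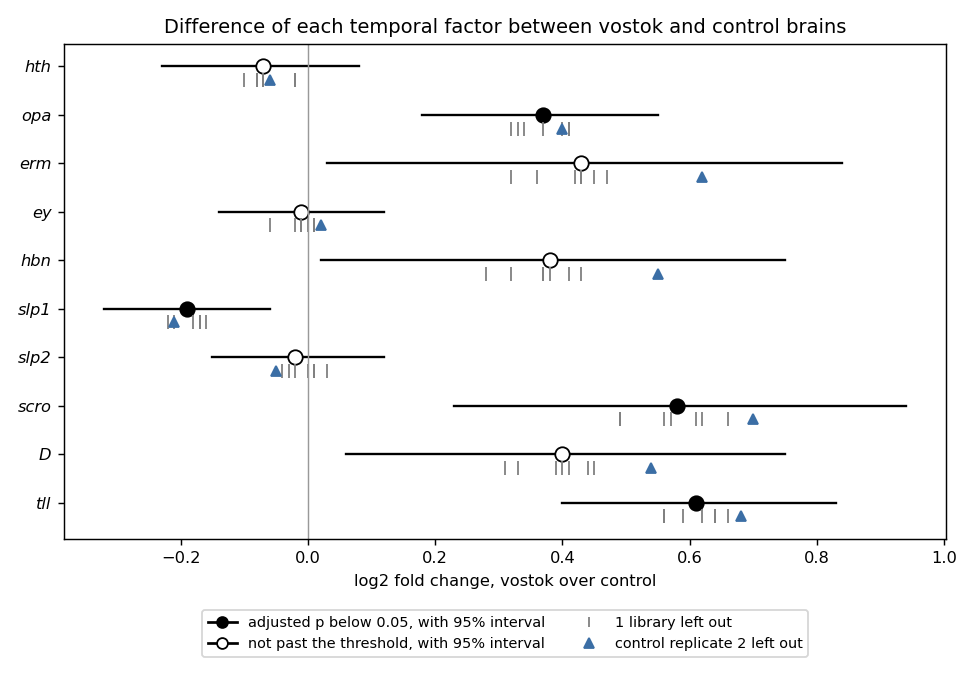
Log2 fold changes of vostok over control for the 10 factors in the order of the series, with 95% intervals from the edgeR fit; filled circles passed the test, ticks are values with 1 library left out, and triangles those without control repeat 2. Leaving out control repeat 2 gave 0.62 for erm and 0.55 for hbn, while tll stayed between 0.56 and 0.68 whichever library was left out.

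The members differed in how much they varied among control libraries. The coefficient of variation over control libraries was 27.8% for erm, 24.9% for hbn, 23.1% for scro and 23.0% for D, against a median of 13.9% over all tested genes. In vostok libraries the same genes varied by 4.62%, 5.2%, 5.53% and 3.82%, where the median gene varied by 6.89%. For the other 6 members the control value lay between 4.28% for slp1 and 12.8% for tll. Control libraries varied more than vostok libraries for 7 of 10 members and for 76.6% of all tested genes. In tll, opa, scro, D, erm, hbn and ey control replicate 2 was the highest and control replicate 4 the next among the control libraries. Sums over the mature neuron list had the same pair on top, and the hemocyte sum was lowest in control replicate 2. A hemocyte covariate was tried as an alternative fit, but its group means differ. It may therefore absorb some of the genotype effect, and the fit does not divide hemocyte content from genotype. The part of these other cell types in the member differences was not tested.

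**Figure D3:**
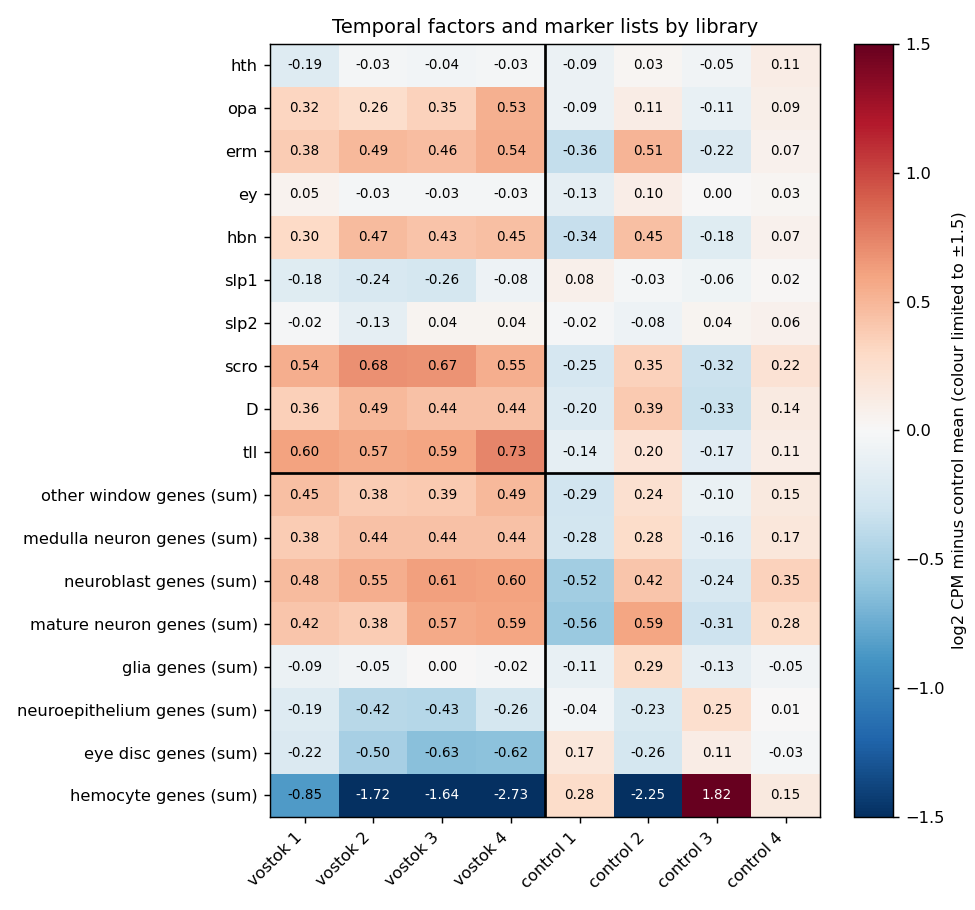
Log2 CPM of each factor, and of the summed CPM of marker lists, minus the mean of the 4 control libraries; columns are libraries, vostok left of control. Control repeats 1 and 3 are low for erm, hbn, scro and D as for the mature neuron sum (-0.56 and -0.31), and the hemocyte sum spans -2.25 in control repeat 2 to 1.82 in control repeat 3.

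Other genes of the temporal series moved in both directions. The list held SoxN, dmrt99B, Oaz (named L in the file), B-H1, B-H2, gcm and gcm2, of which 3 of 7 were higher and 2 lower, with a median log2 fold change of 0.33. Here and for the lists below, the shares over all tested genes to set beside a count are 12.1% higher and 16.2% lower, or 28.3% in all, with 5249 of 10749 log2 fold changes above 0 and a median of -0.01. The glial switch gene gcm, which acts at the end of the series, averaged 34.5 CPM in vostok and 24.2 CPM in control libraries (log2 fold change 0.51 ± 0.10, edgeR adjusted p = 0.0114). SoxN, a Sox gene of the early windows, averaged 527 CPM in vostok and 362 CPM in control libraries (0.54 ± 0.15, adjusted p = 0.0316). The lower pair was B-H1 and B-H2, adjacent Bar homeobox genes that are also used in photoreceptors of the eye disc. The call of gcm held with any 1 library left out, and that of SoxN in 3 of the 8 such fits. With vostok repeats 1 to 4 and then control repeats 1 to 4 left out in turn, 1, 1, 1, 1, 2, 5, 1 and 3 of these genes were higher and 2, 0, 0, 0, 0, 2, 0 and 0 lower.

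Genes that mark medulla neurons born in these windows had positive log2 fold changes in 17 of 18 cases. Of the 18 genes 6 rose and 0 fell, with a median log2 fold change of 0.46. The called share was near the 28.3% of all tested genes in either direction, of which 12.1% were higher. At an unadjusted p below 0.05, 13 were higher and 0 lower, and with DESeq2 at 0.05 12 were higher and 0 lower. Over all 10749 tested genes these counts were 2157 higher and 2698 lower, and with DESeq2 2010 higher and 2320 lower. The POU gene vvl averaged 162 CPM in vostok and 106 CPM in control libraries (0.60 ± 0.12, edgeR adjusted p = 0.00855), and the forkhead gene fd59A 63.9 CPM in vostok and 41 CPM in control libraries (0.64 ± 0.15, adjusted p = 0.0186). The Hth-window marker bsh, at 17.1 CPM in vostok and 13 CPM in control libraries, did not pass (0.39 ± 0.22, adjusted p = 0.188). The call of vvl held with any 1 library left out and that of fd59A in 6 of the 8 such fits. In the same order of libraries left out, 4, 1, 1, 2, 3, 15, 3 and 5 of the 18 genes were higher. Across the 10 mature neuron genes all 10 log2 fold changes were positive, with a median of 0.42. Positive values were thus not particular to the medulla neuron list. None of the 10 passed edgeR's test, with 1 higher and 0 lower at an unadjusted p below 0.05 and the same counts with DESeq2. Without control replicate 2, 7 were higher. The most abundant of them were elav, at 724 CPM in vostok and 539 CPM in control libraries (adjusted p = 0.0791), and brp, at 533 CPM in vostok and 401 CPM in control libraries (adjusted p = 0.347).

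Genes of the neuroepithelium, where the neuroblasts arise, moved in both directions, with more of them lower. Of 13 genes 1 rose and 5 fell, with 4 log2 fold changes above 0 and a median of -0.38. Among the genes that did not pass were Rx, at 0.52 ± 0.19 (edgeR adjusted p = 0.0763), and Optix, at -0.13 ± 0.05 (adjusted p = 0.0795). The Notch ligand Dl averaged 93.6 CPM in vostok and 151 CPM in control libraries (-0.69 ± 0.12, edgeR adjusted p = 0.00601), and the signal hh 7.92 CPM in vostok and 19.9 CPM in control libraries (-1.33 ± 0.30, adjusted p = 0.0175). The other genes that fell were dpp, wg and crb. The call of Dl held with any 1 library left out and that of hh in 6 of the 8 such fits, and the list then had 0, 0, 0, 0, 1, 3, 0 and 1 higher and 4, 1, 1, 3, 3, 7, 3 and 4 lower genes. Many of these genes are also active in imaginal discs. In the eye disc list, 5 of 9 genes fell and 0 rose (0 higher at an unadjusted p below 0.05 and with DESeq2), with a median of -1.49. The eye disc genes ato, at 12.5 CPM in vostok and 27.6 CPM in control libraries, and eyg, at 4.6 CPM in vostok and 16.9 CPM in control libraries, had the smallest p, and both calls held with any 1 library left out. In that order 7, 2, 2, 3, 3, 6, 3 and 3 genes of the list were lower. The summed level of the list was 264 to 351 CPM in vostok and 342 to 461 CPM in control libraries, no marker was at 0 in any library, and its part in the values of ey and hth was not tested.

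Among neuroblast genes the share called was near the 28.3% of all tested genes. Of 14 genes 2 rose, mira and sna, and 2 fell, E(spl)mgamma-HLH and numb, with a median of 0.10. E(spl)mgamma-HLH, a Notch target of neuroblasts, averaged 38.3 CPM in vostok and 59 CPM in control libraries (-0.62 ± 0.13, edgeR adjusted p = 0.0105), and numb, an inhibitor of Notch, 123 CPM in vostok and 157 CPM in control libraries (-0.35 ± 0.09, adjusted p = 0.0246). The call of E(spl)mgamma-HLH held with any 1 library left out and that of numb in 4 of the 8 such fits. Both higher calls were made only in the fit without control replicate 2 among those fits, in which 5 genes of the list rose. The pan-neuroblast factor dpn was at 41.7 CPM in vostok and 41 CPM in control libraries (0.02 ± 0.07, adjusted p = 0.791). Among 4 genes of intermediate progenitors none passed edgeR's test (2 were lower without control replicate 2), with 1 higher and 1 lower at an unadjusted p below 0.05 and 0 with DESeq2. The most abundant were ham, at 140 CPM in vostok and 115 CPM in control libraries, and Sp1, at 93.1 CPM in vostok and 116 CPM in control libraries. Of 7 glial genes 0 rose (0 at an unadjusted p below 0.05 and with DESeq2) and 1 fell, the receptor gene moody of the blood-brain barrier, at 25.8 CPM in vostok and 37.3 CPM in control libraries (adjusted p = 0.00635), a call that held with any 1 library left out. Without control replicate 2, 1 glial gene was higher and 1 lower.

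Hemocyte genes were lower in vostok by their values but varied widely. Among the 8 genes none passed edgeR's test, with 0 higher and 5 lower both at an unadjusted p below 0.05 and with DESeq2, and a median log2 fold change of -2.37. The summed level was 140 to 515 CPM in vostok and 195 to 3270 CPM in control libraries, and no marker was at 0 in any library. Hml averaged 75.1 CPM in vostok and 564 CPM in control libraries (edgeR adjusted p = 0.0946), and Pxn 116 CPM in vostok and 455 CPM in control libraries (adjusted p = 0.0569). Without control replicate 2, 7 of the 8 were lower.

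The members were also expressed relative to neuroblast genes in the same library. Over the sum of the 14 neuroblast genes, slp1, hth and ey were lower in vostok with no overlap between the groups and the other 7 overlapped, while of all tested genes 43.0% were lower and 5.62% higher in this measure. That sum was 10400 to 11400 CPM in vostok and 5180 to 9960 CPM in control libraries, and pros and brat, which neurons express as well, made up 78.6% to 90.8% of it. Over dpn alone the groups did not overlap for 4 members, against 23.8% of all tested genes. As dpn was at 41.7 CPM in vostok and 41 CPM in control libraries, this measure nearly repeats the comparison in CPM and is no separate check of it. Relative to dpn, tll was 158% ± 8.18 in vostok and 105% ± 15.2 in control libraries, opa 164% ± 3.99 in vostok and 130% ± 12.9 in control libraries, and scro 408% ± 51.4 in vostok and 276% ± 68.1 in control libraries (SD, n = 4 each). These were higher, whereas slp1 was lower at 63.6% ± 3.95 in vostok and 73.6% ± 3.63 in control libraries. Each of the 4 had an exact two-sided permutation p = 0.0286, the smallest possible and not adjusted over the genes. Whether tll, opa and scro were separate thus depended on whether pros and brat were in the sum. With both left out, an alternative chosen after the data were seen, the same 4 members were separate, against 26.8% of all tested genes. The sum without them was 1010 to 1170 CPM in vostok and 1040 to 1140 CPM in control libraries, so this measure too is close to the comparison in CPM.

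**Figure D4:**
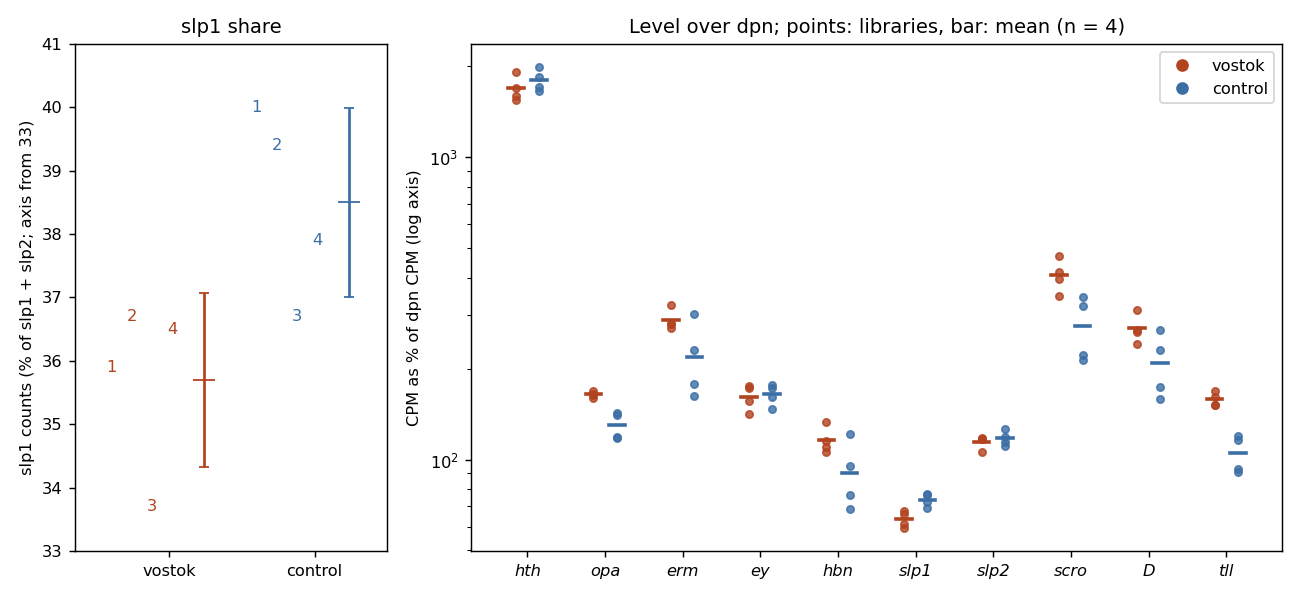
Left, slp1 counts as a percentage of slp1 plus slp2 counts per library, with digits for repeats and the mean ± SD (n = 4); right, the CPM of each factor as a percentage of dpn CPM on a log axis, with points for libraries and bars for means. The slp1 share averaged 35.7% in vostok and 38.5% in control libraries, and vostok points lie above control points for opa, scro and tll and below them for slp1.

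The members lie on 5 chromosome arms, with positions from RefSeq for Release 6 of the genome, which is the assembly called dm6. On 3R are opa (4852813 to 4869979), hth (10507561 to 10639568) and tll (30852315 to 30854400), and on 3L are D (14175610 to 14178620) and scro (24724162 to 24758036). On 2L are erm (1950239 to 1970362), slp1 (3825675 to 3827099) and slp2 (3836840 to 3839185), hbn is on 2R (20954668 to 20960909) and ey on chromosome 4 (697689 to 721173). The nearest tested genes on both sides of the members, 18 genes that are no members, held 2 that were higher and 4 that were lower, or 33.3%, close to the 28.3% of all tested genes. Beside D, Sox21b, another Sox gene, averaged 42.9 ± 7.8 CPM in vostok and 24.3 ± 7.35 CPM in control libraries (SD, n = 4 each; log2 fold change 0.82 ± 0.23, edgeR adjusted p = 0.0324). Beside slp2, lncRNA:CR44983 was at 0.348 ± 0.0619 CPM in vostok and 0.0288 ± 0.0213 CPM in control libraries. The control mean lay below the level that 3 counts give in any control library, so no fold is given. The tested neighbours of tll and scro that passed were lower, the direction opposite to these members: CG15544 beside tll was at 2.92 ± 1.07 CPM in vostok and 7.69 ± 2.33 CPM in control libraries, and CG40472, 169093 bp from scro, at 13.7 ± 1.05 CPM in vostok and 25.8 ± 1.58 CPM in control libraries. CR41597, a neighbour of scro on its other side, and Phyhd1 beside hth were the remaining lower genes. With 1 library left out, the calls of CG15544, CG40472, Phyhd1 and lncRNA:CR44983 held each time, that of Sox21b in 3 of 8 fits and that of CR41597 in 1 of 8. Neighbours of opa, erm, hbn and ey did not pass.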

How the data were processed

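The authors deposited salmon estimated counts, 1 column per library, unscaled; salmon is known from the file name. Per the submitters' processing notes, BWA and dm6 were used, for which assay is not stated. No version, annotation release or strand setting is given in the sources used here. Total RNA was extracted in Trizol for directional libraries, per the labels' protocols. Of 24278 rows, 17895 were genes and the other 6383, transposable element and other entries, were left out.

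Estimated counts were rounded, filtered with filterByExpr and scaled by TMM, and vostok was compared with control with edgeR 4.0.16 (robust quasi-likelihood F test, genotype as the only term) in R 4.3.3, adjusted over all tested genes. The procedure was tested on simulated counts with the same spread in both groups. That test does not cover the wider spread among the control libraries. Ratios were compared with exact permutation tests (scipy 1.17.1). Alternatives were other scaling (RLE, upper quartile, none), no filter or at least 50 counts in at least 4 libraries, DESeq2 1.42.0, limma voom (limma 3.58.1), a replicate block and each library left out. A hemocyte covariate, the neuroblast sum without pros and brat, and pairing of the slp1 share were added after the data were seen. The labels name no batch.

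The members and the 10 lists of related genes were chosen with earlier results of these data known. Named genes are the members, CG11504, up to 2 called genes of each list by p (or the 2 most abundant if none was called), and the nearest tested neighbours. Other names were chosen after their values were seen. The result of 1 list gene is not reported here by name. RefSeq positions matched 10547 tested genes by symbol. Oaz was matched through RefSeq synonyms. Reads carry no molecular identifiers, so counting error covers counting only. Figures were drawn with matplotlib 3.10.9.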

Additional observations from a re-analysis of the deposited data

Results flagged for a closer look

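In vostok replicate 1, hth was at 646 CPM, far below the other 3 vostok libraries in relation to their range. In the same library ey was at 69.6 CPM, far above the other 3. Each of the 10 members was examined in both groups, and so was the slp1 share, which makes 22 groups of 4 libraries, of which 2 were marked. Chance marks about 1 in 20 such groups. Vostok replicate 1 also had the highest eye disc and hemocyte sums among vostok libraries, at 351 and 515 CPM; their part in these values was not tested.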

How the results depend on the processing

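The call of tll held under each alternative run. With 1 library left out, genes differing numbered 1521 to 5333, members called 2 to 7, called genes of the 10 related lists 8 to 67 and members separate over the neuroblast sum 3 to 5. The highest counts of called genes came without control replicate 2. Log2 fold changes then ranged over 0.56 to 0.68 (tll), 0.32 to 0.41 (opa), 0.49 to 0.70 (scro), -0.22 to -0.16 (slp1), 0.31 to 0.54 (D), 0.32 to 0.62 (erm), 0.28 to 0.55 (hbn), -0.10 to -0.02 (hth), -0.05 to 0.03 (slp2) and -0.06 to 0.02 (ey). The slp1 share then differed by -3.42 to -2.16 points, with p = 0.0571 in the exact permutation test each time, the smallest it can give for 3 against 4. The slp1 call was lost with RLE factors or the stricter filter (-0.17), upper quartile or no factors (-0.18) and the hemocyte covariate (-0.22). That covariate also ended the calls of opa (0.25) and scro (0.43), gave 0.20 for erm, 0.18 for hbn and 0.22 for D, which did not pass, and left 1221 genes, 1 member and 5 related genes. Its group means differ, so it may absorb some of the genotype effect. DESeq2 called 4330 genes, 50 related genes and D (0.42). For ey and slp2, which passed in no setting, the sign turned with values of 0 to 0.01 in settings other than a left-out library.

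Repeat numbers are shared by the groups, but same-numbered libraries did not deviate together (correlations 0.18, 0.00712, 0.0388 and -0.0473 for numbers 1 to 4), so they are not taken as pairs. With the replicate block, 1564 genes, 3 members and 17 related genes were called, and slp1 (-0.19) was not. In the same pairing the slp1 share differed by -2.82 points, with a sign-flip permutation p = 0.125, the smallest 4 pairs can give. No vostok library correlated best with the control library of its own number, and among control libraries only replicate 1 did so. The cause of the changed calls was not tested.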

Other observations

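Genes of the ring gland and fat body, tissues that can stay attached to a dissected brain, were also measured. Of 7 genes 2 rose and 0 fell, with a median log2 fold change of 0.77. At an unadjusted p below 0.05, 2 were higher and 0 lower, and with DESeq2 3 were higher and 0 lower. The called share is near the 28.3% of all tested genes in either direction, of which 12.1% were higher. Akh, the adipokinetic hormone gene of the corpora cardiaca, averaged 17.3 CPM in vostok and 7.57 CPM in control libraries (1.19 ± 0.23, edgeR adjusted p = 0.00964). The ecdysone synthesis gene dib averaged 17 CPM in vostok and 8.66 CPM in control libraries (0.98 ± 0.29, adjusted p = 0.0397). The Akh call held with any 1 library left out and that of dib in 3 of the 8 such fits. With vostok repeats 1 to 4 and then control repeats 1 to 4 left out in turn, 1, 1, 2, 1, 1, 2, 1 and 2 genes of the list rose, and 1 fell without control replicate 2. The summed level of the list was 487 to 857 CPM in vostok and 211 to 659 CPM in control libraries.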
